A study of Homo sapiens with 24 samples.

Results

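HT29 cells, an established human colon adenocarcinoma line, were treated for 6 h with the death ligand TRAIL alone or with TRAIL together with the supernatant (SN) of a propionibacterial culture. The comparison of these groups rests on 8 of the 24 one-colour expression arrays of the series, the 4 labelled TRAIL + SN and the 4 labelled TRAIL, and those labels alone decide which arrays enter it. Both groups received TRAIL at 100 ng/ml with a cross-linking anti-Flag antibody at 2 µg/ml, so the groups differ by the supernatant. The other groups, each of 4 arrays, were untreated cells (NT), SN alone, a mixture of 30 mM propionate and 15 mM acetate (C3/C2), and TRAIL with that mixture. The model is a single cell line at a single time, and the arrays of a group come from separate cultures only as far as the study's methods say, which name 2 independent experiments in duplicate. Which array belongs to which experiment is not given.

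TRAIL binds the receptors TNFRSF10A and TNFRSF10B, which recruit the adaptor FADD and caspase-8 into a death-inducing complex. The same receptors can also switch on NF-κB, a transcription factor that induces chemokines and survival genes. BH3-only proteins carry the death signal to mitochondria, where BCL2 family members decide on the opening of the outer membrane. Dairy propionibacteria release the short-chain fatty acids propionate and acetate, which colon cells take up. The study proposes that the mixture of these acids, at the millimolar levels used, inhibits histone deacetylases.

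Expression is given throughout as the log2 of the array signal minus that array's 75th percentile, here called the level, and a difference is TRAIL+SN minus TRAIL on that log2 scale. A gene was called when it differed by 2-fold or more with an adjusted p under 0.05 (limma, Benjamini-Hochberg over 20700 genes). By this rule 2961 genes (14.3% of those tested) were higher and 1672 (8.08%) were lower in TRAIL+SN. Of the called genes, 2873 higher and 1623 lower ones had no overlap between the 4 and 4 arrays, and of all genes 32.0% lay higher and 29.4% lower without overlap, so that a lack of overlap is common here. The median gene differed by 0.05. A scaling to the array median put it at -0.25, and the split of calls moved from 63.9% higher to 42.0% higher (2130 higher and 2944 lower), so the numbers of rises and falls are relative to the scaling. Groups and slides coincide here, since all 4 TRAIL arrays lay on slide 3 and all 4 TRAIL+SN arrays on slide 4, and slide and group cannot be told apart. The 75th percentile intensity was 631 to 683 on the TRAIL arrays and 485 to 546 on the TRAIL+SN arrays, without overlap (two-sided exact permutation p = 0.0286, the smallest that 4 against 4 arrays allow). The share of probes above background was 49.8 to 53.5% and 51.0 to 52.0%. All 15 colon epithelial markers passed the filter on dim probes, which asks for a signal well above background on every array of some group, and 6 of the 15 markers of fibroblasts, immune and endothelial cells did not pass it. Of the 9 that did, 3 were called higher (33.3% against 14.3% of all genes), among them COL1A1 (at least 33.3-fold) and CD14 (difference 1.34). The summed linear level of these 9 was 2.07 to 2.90 in the TRAIL arrays and 5.02 to 6.87 in the TRAIL+SN arrays, and in the SN arrays it was 4.95 to 6.54. Its part in any result was not tested.

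Among named genes above background on all 8 arrays, the largest rise was in CYP1A1, the cytochrome P450 that detoxifies aromatic hydrocarbons. Its level was -4.45, -3.98, -3.87 and -4.34 in the TRAIL arrays and 3.06, 3.06, 3.15 and 3.19 in the TRAIL+SN arrays. All TRAIL+SN arrays were far above all TRAIL arrays, a rise of 155-fold (difference 7.27 ± 0.25 SE, adjusted p = 4.1e-16). CEND1 rose by 6.57, the actin-bundling FSCN1 by 5.57 and the Wnt pathway gene KREMEN2 by 5.35. MICB, a ligand that marks stressed cells for natural killer cells, rose by 5.12, but by 1.65 at its other probe. VPS37D, VASN, TNFSF9 (the ligand of the co-stimulatory receptor 4-1BB) and GPR20 rose by 4.84, 4.82, 4.66 and 4.62. Some genes were not well above background on any TRAIL array, and for them only a lower bound can be given. ANGPTL4, a secreted inhibitor of lipoprotein lipase, was at least 176-fold higher, CREB3L3 at least 66.1-fold, MPP1 at least 49.7-fold, SH2D3C at least 43.6-fold and CBS, which makes cystathionine from homocysteine, at least 42.6-fold. These bounds hold for the main processing only. Over the alternatives the lowest log2 differences, in the same order, were 5.36, 4.11, 3.52, 3.61 and 3.17, which lie below the bounds.

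By the same criterion the largest fall was in KCNE3, a subunit of potassium channels of the intestinal epithelium. It read 2.68, 2.63, 2.60 and 2.56 in the TRAIL arrays and -2.43, -2.35, -1.82 and -2.20 in the TRAIL+SN arrays. The arrays of the groups did not overlap, and the fall was 28.3-fold (difference -4.82 ± 0.12 SE, adjusted p = 2.4e-18). LTB followed with -4.48, then NR0B2 (-4.17), a nuclear receptor that represses bile acid synthesis genes, and NOX1 (-3.53), the NADPH oxidase of colon epithelium. MIR17HG (-3.31), the host transcript of a microRNA cluster, MRM1 (-3.23), the syntaxin gene STX19 (-3.07), B3GALT4 (-2.97) and ATF5 (-2.96) were also among the 10 largest. Of the genes not above background on any TRAIL+SN array, UBD was at least 30.0-fold lower, PTPRO at least 5.39-fold, the olfactory receptor gene OR51E1 at least 5.28-fold, RTP4 at least 4.88-fold and RSAD2 at least 4.81-fold. These bounds too hold for the main processing only. With normexp background correction PTPRO (-0.86), RTP4 (-0.91) and RSAD2 (-0.78) were not called. Over the alternatives the smallest falls of UBD and OR51E1 were -3.07 and -1.07.

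**Figure D1:**
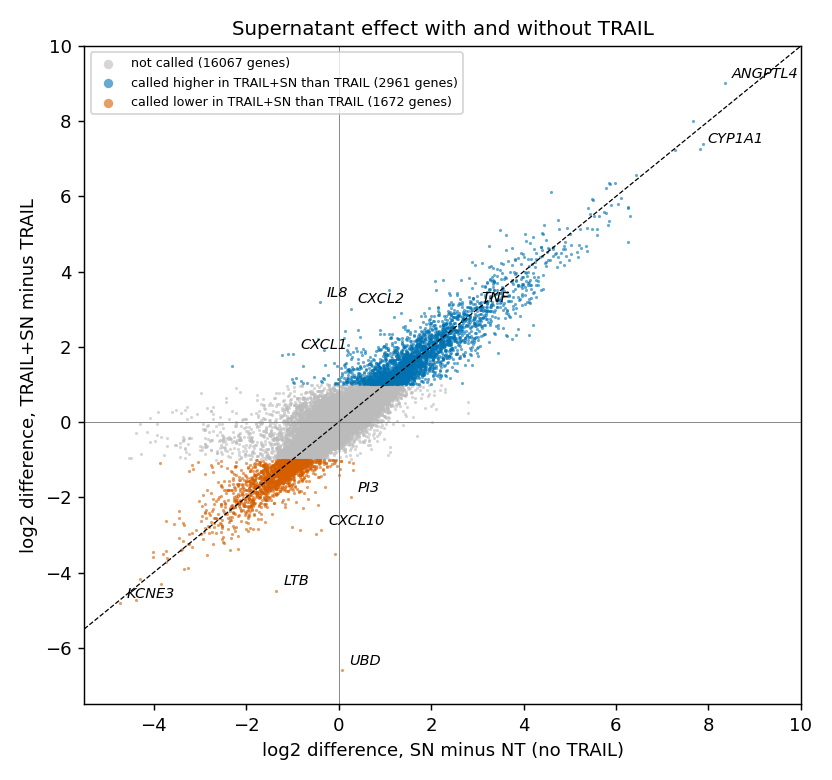
Log2 difference of each of the 20700 genes with supernatant in TRAIL-treated cells (vertical axis) against that in cells without TRAIL (horizontal axis); points are genes coloured by their call in the TRAIL-treated cells and the dashed line marks equal differences. Most called genes lie near the line, while IL8, CXCL1 and CXCL2 lie above it and UBD, LTB, CXCL10 and PI3 below.

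Most of the response was also present without TRAIL. Cells given SN alone were compared with NT cells on arrays that are not used in the TRAIL comparison, although the SN and TRAIL arrays share slide 3, which enters the comparisons with opposite sign. The NT arrays lay on slides 1 and 2, so slide and group cannot be told apart in the comparison of SN with NT. SN alone raised 2949 genes (14.2%) and lowered 2017 (9.74%). Of the 2961 genes higher with supernatant in TRAIL-treated cells, 2456 were higher with SN alone, which is 82.9% of the former and 83.3% of the latter. Of the 1672 lower genes, 1229 were lower with SN alone, 73.5% and 60.9%. 4 of the higher genes were called in the opposite direction and none of the lower ones. Across genes the differences correlated with r = 0.89, a description over genes that are not independent.

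**Figure D2:**
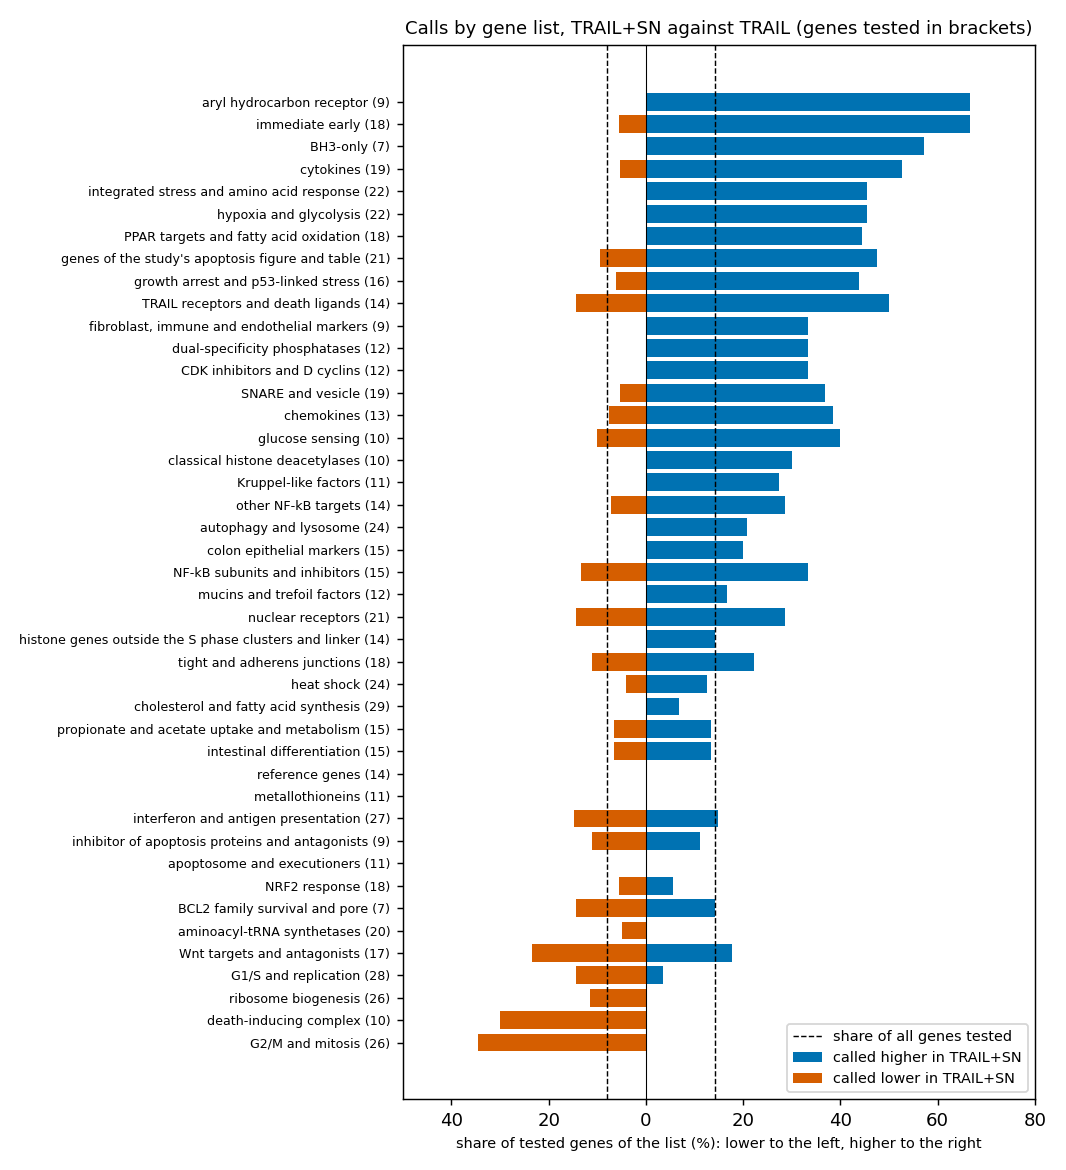
Share of the tested genes of each list that were called higher (right, blue) or lower (left, orange) in TRAIL+SN than in TRAIL, with the number tested in brackets and the shares over all genes tested as dashed lines (14.3% and 8.08%). The aryl hydrocarbon receptor and immediate early lists have the largest shares of higher genes, and the G2/M list the largest share of lower genes.

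Among the ligands and receptors of the TRAIL family, 7 of 14 genes tested were higher and 2 lower (median difference 0.84). The shares were 50% and 14.3%, against 14.3% and 8.08% of all genes. TNFRSF10B, a death receptor of TRAIL, read 2.95, 3.07, 2.94 and 3.22 without and 4.88, 4.89, 4.51 and 4.55 with supernatant. The groups were apart by more than a log2 unit, and the rise was 3.16-fold (1.66 ± 0.10 SE, adjusted p = 6.3e-12, limma). The decoy receptors, which bind TRAIL without a death signal, moved the same way: TNFRSF10D rose by 1.26, though by 0.96 to 0.99 and so below 2-fold under the array median and spike-in scalings, and TNFRSF10C was at least 2.13-fold higher. TNFRSF25, another death receptor, rose by 1.80. CD70 was not above background in any TRAIL array and at least 1.81-fold higher. The calls of TNFRSF10C (0.77) and CD70 (0.51) were lost with normexp. The lower genes were LTB and the death receptor gene FAS (-1.08), whose call was lost with normexp (-0.73).

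TNF, the prototype of this ligand family, read -1.78, -1.55, -1.27 and -1.29 without and 1.90, 1.90, 1.20 and 1.27 with supernatant, a rise of 8.22-fold without overlap. LTB, the lymphotoxin β gene, moved the other way. Its levels of 0.27, 0.56, 0.60 and 0.69 gave way to -4.17, -4.15, -3.82 and -3.67, a fall of 22.3-fold. These neighbours in the tumour necrosis factor gene cluster of chromosome 6 thus changed in opposite directions.

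The death-inducing complex itself had no higher gene among its 10, and 3 lower (30.0% against 8.08% of all genes; median -0.38). FADD read 4.93, 5.04, 4.94 and 4.87 in the TRAIL arrays against 3.79, 3.81, 3.71 and 3.69, a fall of 1.20 without overlap. MLKL, the effector of necroptosis, fell by 1.03. CASP10 fell by 1.25 at the probe that stood for the gene only: its other 2 probes read 0.45 and 0.83. CASP8 differed by -0.79 and was not called, but was lower at -1.08 and -1.05 under the array median and spike-in scalings. CFLAR, which encodes the caspase-8 inhibitor FLIP, was split by probe. The probe that stood for the gene differed by 0.49, and the other 3 were called lower at -1.13, -1.28 and -1.43, so its direction depends on the probe.

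BH3-only genes stood out in the mitochondrial arm, where 4 of 7 were higher and none lower (median 1.41). The higher share was 57.1%, against 14.3% of all genes. BMF read -1.85, -1.77, -1.24 and -0.98 without and 2.50, 2.61, 2.40 and 2.39 with supernatant, a rise of 15.3-fold. BBC3, which encodes PUMA, read 2.45, 2.53, 2.76 and 2.86 against 5.59, 5.56, 5.58 and 5.50, a rise of 7.51-fold. In both genes the groups were far apart, and the calls held under each scaling. BIK rose by 2.08 and BCL2L11 (BIM) by 1.41, though another BCL2L11 probe differed by 0.28 and was not called. PMAIP1 (0.80) and BID (-0.68) were not called.

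Changes elsewhere in the apoptosis machinery were smaller. The pore gene BAK1 rose by 1.16 (0.86 and 0.89 under the array median and spike-in scalings), and BCL2L1, which encodes the survival protein BCL-XL, fell by 1.00. That last call sat at the 2-fold limit and was lost when TRAIL replicate 1 or 2, or TRAIL+SN replicate 2 or 3, was left out (-0.97 to -0.99). BAX (-0.35) and MCL1 (0.46) were not called. BIRC3, an NF-κB-induced inhibitor of apoptosis, rose by 2.26. XIAP (-0.73) and BIRC2 (0.70) were not called, though XIAP was lower at -1.02 under the array median scaling, and XAF1, an interferon-inducible antagonist of XIAP, was at least 2.28-fold lower. The XAF1 call was lost with normexp (-0.56). None of the 11 apoptosome and executioner genes was called, with CASP6 (-0.95), CASP9 (0.92), DFFB (-0.90) and DFFA (0.80) nearest to the limit. CASP6 (-1.25 and -1.22) and DFFB (-1.19 and -1.16) were called lower under the array median and spike-in scalings. Of the 21 genes that the study itself singled out for apoptosis, 10 were higher and 2 lower. These shares were 47.6% and 9.52%, against 14.3% and 8.08% of all genes. Under the array median scaling the numbers were 8 and 6. That list was chosen on these samples and is not independent evidence.

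**Figure D3:**
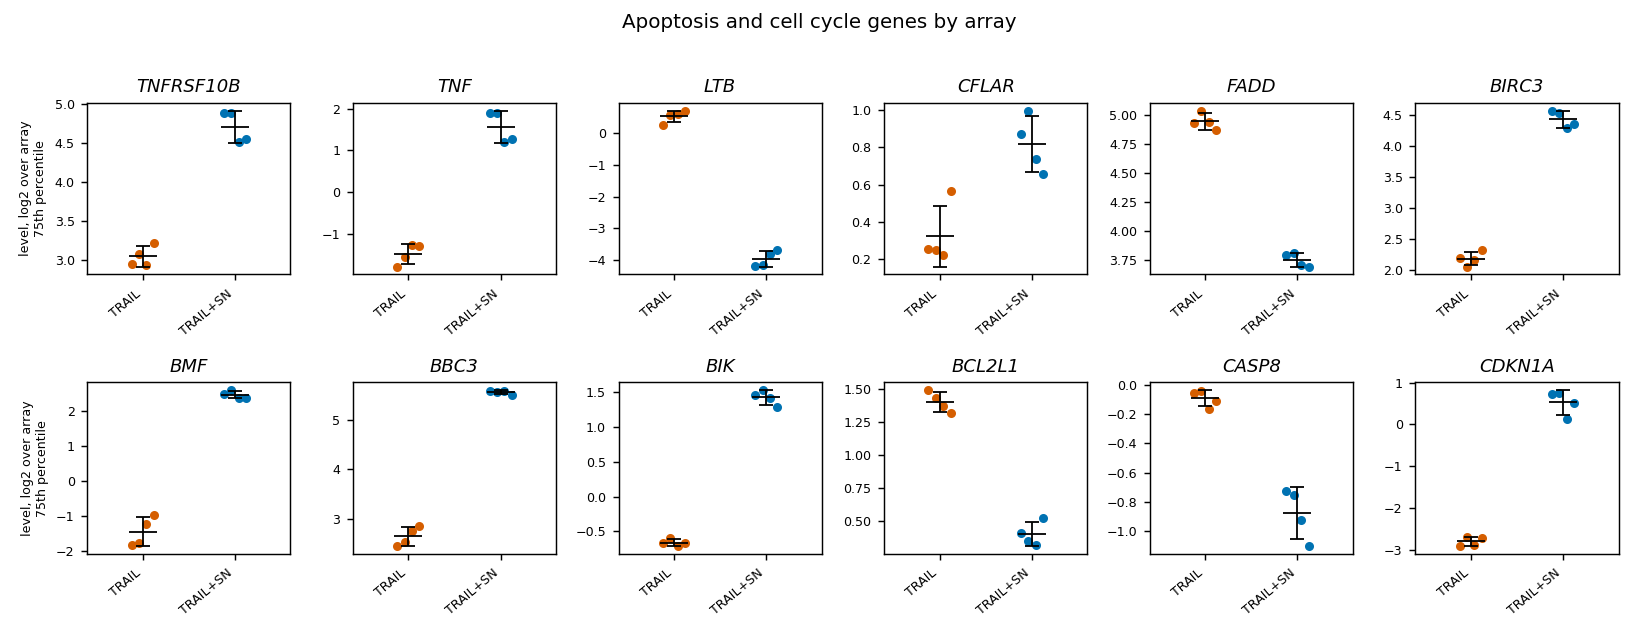
Levels (log2 of signal over the array's 75th percentile, vertical axis; each panel has its own scale) of 12 apoptosis and cell cycle genes in the 4 TRAIL and 4 TRAIL+SN arrays; points are arrays, bars the mean ± SD. The groups do not overlap in any panel, and LTB, FADD, BCL2L1 and CASP8 are the panels in which TRAIL+SN is lower. CFLAR is shown at the probe that stood for the gene, while its other 3 probes were called lower.

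Several chemokine genes differed in their response to the supernatant between cells with and without TRAIL. IL8 (now CXCL8), a neutrophil attractant, read -2.61, -2.40, -2.25 and -1.79 in the TRAIL arrays and 0.93, 0.86, 0.95 and 0.93 in the TRAIL+SN arrays. The rise was 9.07-fold (3.18 ± 0.32 SE, adjusted p = 2.0e-08, limma). No NT or SN array had IL8 well above background, so the effect of SN alone was not measured, and the interaction that was called for it has no exact size. For genes measured in all 4 groups, the difference between the effects with and without TRAIL is given as the interaction. The NT arrays that enter it lay on slides 1 and 2, and the other groups on slides 3 and 4. Differences between slides therefore enter every interaction and cannot be told apart from it. CXCL2 rose by 3.02 (interaction 2.76), CXCL1 by 1.80 (2.79) and CXCL3 by 1.10 (1.07), the last at 0.81 to 0.84 under the array median and spike-in scalings. CCL20, which attracts lymphocytes and dendritic cells, read -0.05, -0.01, 0.44 and 0.83 against 4.24, 4.21, 3.96 and 3.95, a rise of 13.8-fold with a called interaction, though 2 of the 4 NT arrays were not above background. In all, 5 of 13 chemokine genes were higher (38.5% against 14.3% of all genes, median 0.22 against 0.05 over all genes). CXCL10, an interferon-inducible chemokine, was at least 2.94-fold lower. With normexp neither CXCL10 (-0.51) nor CXCL3 (0.97) was called. CXCL1, CXCL2 and CXCL3 are close paralogs whose probes may share signal.

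The upstream sequences of these chemokine genes are shown because the members that rose, apart from CCL20, start between positions 73740449 and 74099315 of chromosome 4. They come from RefSeq on GRCh38.p14, 5′ to 3′ on the strand of the gene, and give the 120 bases before the annotated start. CXCL8 is chr4:73740449-73740568 (plus strand), CXCL1 chr4:73869273-73869392 (plus), CXCL2 chr4:74099196-74099315 (minus), CXCL3 chr4:74038690-74038809 (minus) and CCL20 chr2:227813722-227813841 (plus). Capitals mark matches to GGANTTTCC, a form of the κB motif, searched on both strands.
CXCL8: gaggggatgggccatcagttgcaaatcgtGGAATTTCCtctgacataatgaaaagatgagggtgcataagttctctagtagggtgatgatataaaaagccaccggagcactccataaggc
CXCL1: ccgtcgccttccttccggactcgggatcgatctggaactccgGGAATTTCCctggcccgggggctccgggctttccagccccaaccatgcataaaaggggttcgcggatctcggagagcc
CXCL2: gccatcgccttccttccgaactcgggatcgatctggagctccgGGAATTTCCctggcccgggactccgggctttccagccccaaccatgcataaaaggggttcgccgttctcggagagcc
CXCL3: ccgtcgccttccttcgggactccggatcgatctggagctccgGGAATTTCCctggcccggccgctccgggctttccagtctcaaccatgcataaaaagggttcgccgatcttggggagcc
CCL20: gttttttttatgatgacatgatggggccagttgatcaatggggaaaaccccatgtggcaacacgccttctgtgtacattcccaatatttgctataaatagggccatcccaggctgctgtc
The same 9 letters, GGAATTTCC, stood 77 to 91 bases before the start of the 4 CXCL genes that rose, and the bases around them were nearly alike in CXCL1, CXCL2 and CXCL3. No match to GGANTTTCC was found in the 250 bases before CCL20, and other forms of the κB motif were not searched. CXCL10, which was lower, held a match 176 bases before its start. Of all 35116 RefSeq windows of 250 bases before a start, 1.45% held the motif. A match is a description of letters and says nothing of binding in these cells.

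Regulators of NF-κB rose with the chemokines in part. Of 15 subunit and inhibitor genes tested, 5 were higher (33.3% against 14.3% of all genes) and 2 lower (13.3% against 8.08%). TNFAIP3, the deubiquitinase A20 that curbs NF-κB, rose by 2.65, NFKBIZ by 1.86 (interaction 1.67), the kinase gene MAP3K14 by 1.85 and NFKBIE by 1.19 (0.89 and 0.92 under the array median and spike-in scalings). The precursor subunit gene NFKB1 fell by 1.25 and IKBKE by 1.38, the latter call being lost with normexp (-0.69). Of 14 other NF-κB target genes, ICAM1, the adhesion molecule, rose by 1.89 (interaction 1.50) and IRF1 by 1.74. In all 4 were higher (28.6% against 14.3% of all genes).

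UBD, which encodes the ubiquitin-like protein FAT10, went the other way from the chemokines. Its level was -0.43, -0.46, 0.21 and -0.01 in the TRAIL arrays and -6.74, -5.58, -7.40 and -7.35 in the TRAIL+SN arrays, none of which was well above background. No NT or SN array was above background either, so only the TRAIL arrays stood apart among these groups. PI3, the elastase inhibitor elafin, read 2.43, 2.48, 2.90 and 2.82 against 0.62, 0.51, 0.76 and 0.76, a fall of 2.00 with an interaction of -2.26. KLK10, a secreted serine protease, fell by 2.80 (interaction -1.79), and LTB had a called interaction without an exact size, as no SN array was above background. PTGS2 (cyclooxygenase-2), IL4I1 and MCAM differed by -0.65, -0.36 and 0.00 between TRAIL+SN and TRAIL, with interactions of -1.77, -2.06 and -2.02, and the sign of the MCAM difference turned under several alternatives. The PTGS2 difference was 0.02 in replicates 1 and 2 and -1.33 in 3 and 4.

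**Figure D4:**
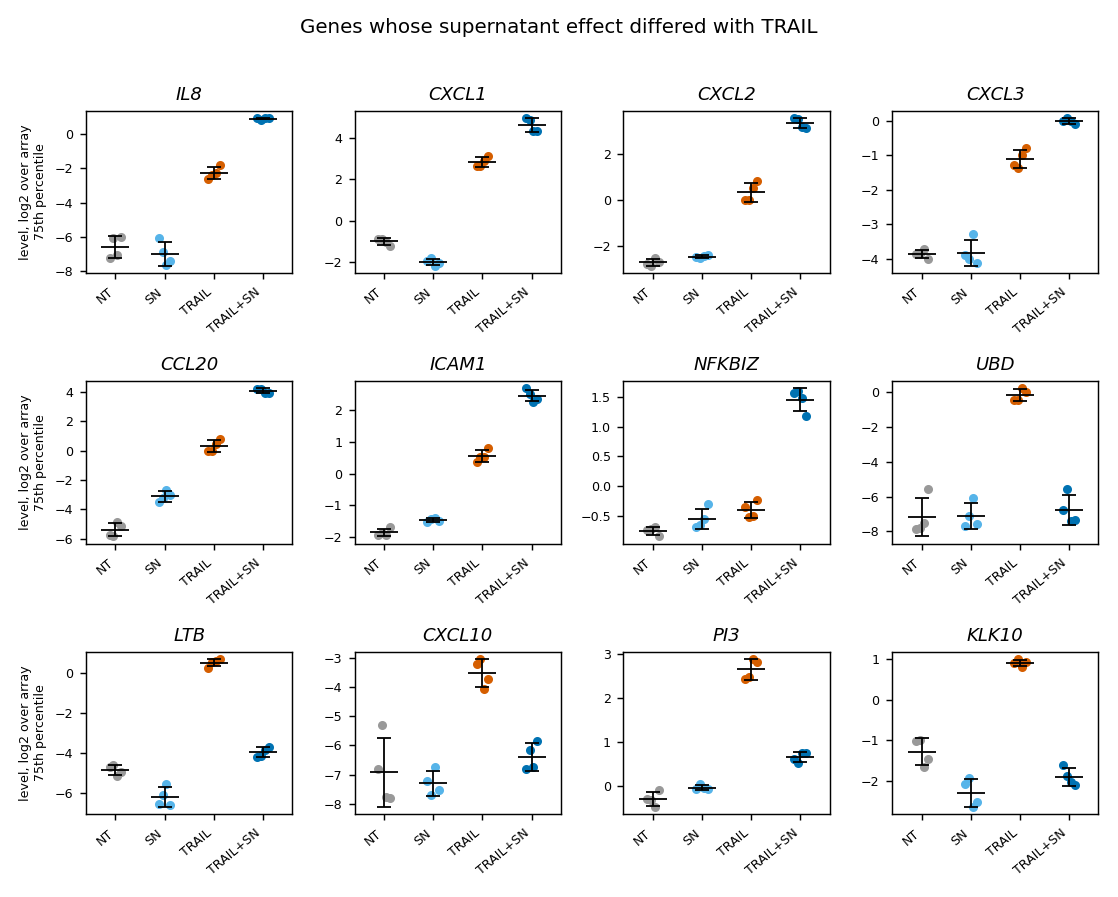
Levels (log2 of signal over the array's 75th percentile, vertical axis; each panel has its own scale) of 12 genes in NT, SN, TRAIL and TRAIL+SN cells; points are arrays, bars the mean ± SD, 4 arrays per group. In the first 7 panels the TRAIL+SN arrays lie above all others, and in the last 5 the TRAIL arrays do.

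By the interaction test 572 genes (2.76%) lay above the sum of the separate effects and 69 (0.333%) below, and under the spike-in scaling these numbers were 340 and 296. Of the 572, 475 were not called between TRAIL+SN and TRAIL, and 344 were lower in TRAIL than in NT, as 2.18% of all genes were. PABPC3, NACAP1 and ZNF90 (3.56, 3.54 and 3.36), which were above background on all arrays of NT, SN, TRAIL and TRAIL+SN, were of this kind. PABPC3 read 2.44 to 3.90 in NT and 2.68 to 4.07 in C3/C2, both on slides 1 and 2, and -0.87 to -0.22 over the arrays of the other 4 groups, all on slides 3 and 4. NACAP1 and ZNF90 were split in the same way, so the levels of these genes followed the slides, and their interactions cannot be told apart from them. PABPC3 and NACAP1 are copies of expressed genes, whose signal may be shared. Of the 572 genes, 83 were also called higher in TRAIL+SN than in TRAIL, among them the chemokines above.

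Cytokine and growth factor genes were higher in 10 of 19 cases (52.6% against 14.3% of all genes) and lower in 1. The lower one was IL33 (-1.07), whose call was lost without TRAIL replicate 3 (-0.93), TRAIL replicate 4 (-0.97) or TRAIL+SN replicate 2 (-0.69). IL1B, a central inflammatory cytokine, read -5.71, -5.89, -5.15 and -5.20 against -0.85, -0.79, -0.92 and -0.95, and was above background in 1 TRAIL array and all 4 TRAIL+SN arrays. The groups were apart by over 4 log2 units (4.61 ± 0.12 SE). IL1A was at least 4.49-fold higher. IL11 rose by 4.57, with 1 of the 4 TRAIL arrays above background like IL1B, so that the sizes of both rises are uncertain. IL17C rose by 2.96, and the epidermal growth factor receptor ligands HBEGF and AREG by 2.71 and 2.50.

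Interferon and antigen presentation genes were divided, with 4 of 27 higher and 4 lower (14.8% each, against 14.3% higher and 8.08% lower over all genes). The lower ones were IFIT3, OAS2 (-1.36), IFI44 and PSMB8 (-1.07), and their number fell to 2 without TRAIL replicate 1 or TRAIL+SN replicate 4 and to 1 without TRAIL replicate 2 or TRAIL+SN replicate 3. Outside that list, RSAD2 and RTP4, also induced by interferon, were among the genes with the highest bounds on their fall, though neither was called with normexp. RSAD2, whose product viperin restricts viruses, read -2.47, -2.23, -3.35 and -3.22 in the TRAIL arrays against -5.23, -5.24, -7.08 and -7.19. RTP4 read -1.95, -1.88, -3.68 and -3.67 against -5.49, -6.76, -7.24 and -7.25. In both genes replicates 1 and 2 lay above replicates 3 and 4 within each group, and within each of these pairs of arrays the supernatant group was lower. IFIT3 fell by 1.86 (1.88 lower in replicates 1 and 2, 1.85 lower in 3 and 4). IFI44 fell by 1.44 with overlapping groups, and its call was lost without TRAIL replicate 2 (-1.19) or TRAIL+SN replicate 3 (-1.16). ISG15 (1.25), IRF7 (1.23) and NLRC5 (1.49) rose, the first 2 by 0.94 to 0.99 under the array median and spike-in scalings, and 1 rather than 4 genes of the list was then higher. NLRC5 read 0.96 with normexp and was not called there.

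All 27 interferon and antigen presentation genes read higher in replicates 1 and 2 than in 3 and 4, in the TRAIL as in the TRAIL+SN arrays. Deviations from the group means correlated between the groups at 0.06 to 0.22 for arrays of the same pair of numbers and at -0.19 to -0.01 for arrays of different pairs. With the pairs as blocks, 2964 genes were higher and 1674 lower, a block that was chosen after the values were seen. Of the 4633 called genes, 1 had opposite signs in the pairs.

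Some genes that hold the cell cycle rose and some mitotic genes fell. Of 12 CDK inhibitor and D cyclin genes 4 were higher (33.3% against 14.3% of all genes) and none lower. CDKN1A, which encodes p21, read -2.92, -2.69, -2.88 and -2.72 against 0.73, 0.75, 0.12 and 0.51. The groups were apart by almost 3 log2 units and the rise was 10.1-fold (3.33 ± 0.12 SE). CDKN2B (2.83), CDKN1C (2.29) and CDKN2D (1.92) also rose, as did the stress genes GADD45B (4.32) and SESN2 (2.86). Of 26 G2/M and mitosis genes 9 were lower (34.6% against 8.08% of all genes), none was higher, and 24 had differences below 0 (median -0.68). The kinesin gene KIF20A read 1.91, 1.85, 1.46 and 1.36 against -0.46, -0.44, -0.52 and -0.64, a fall of 4.48-fold. CCNB2 (-1.88), AURKA (-1.84), CENPA (-1.71) and PLK1 (-1.69), which drive mitotic entry and spindle function, fell as well. In the G1/S and replication list 4 of 28 were lower (14.3% against 8.08% of all genes), or 7 under the array median scaling. CCNA2 differed by -1.50, and CCNE1 rose by 1.26 (0.97 and 0.99 under the array median and spike-in scalings). Of the ribosome biogenesis genes 3 of 26 were lower (11.5% against 8.08% of all genes; 6 under the array median scaling), among them PPAN (-1.88) and UTP20 (-1.36).

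Immediate early genes, the first to answer a stimulus, were higher in 12 of 18 cases and lower in 1 (median 1.57). The higher share was 66.7%, against 14.3% of all genes. NR4A3 was at least 10.1-fold higher, EGR2 rose by 2.85, FOSB by 2.57 and FOS by 2.41. The lower one was MYC (-1.74). None of the 14 reference genes and none of the 11 metallothionein genes was called.

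Lipid and sugar metabolism genes included some of the strongest rises. Of 18 targets of peroxisome proliferator-activated receptors and fatty acid oxidation genes, 8 were higher (44.4% against 14.3% of all genes). Under the array median scaling 5 were higher. Among the 8 were PPARD (2.14), PPARA (1.57) and the lipid droplet gene PLIN2 (1.34), beside ANGPTL4 and CREB3L3. The other PPARA probe differed by 0.52 and was not called. MLXIPL, which encodes the glucose-sensing factor ChREBP, read -2.83, -3.11, -2.62 and -2.22 against 2.14, 2.28, 1.49 and 1.38, a rise of 22.8-fold. SLC2A4, the insulin-responsive glucose transporter, was at least 9.91-fold higher, and TXNIP fell by 1.70. Of 22 hypoxia and glycolysis genes 10 were higher (45.5% against 14.3% of all genes) and none lower. Under the array median scaling 6 were higher. VEGFA rose by 2.47, ENO2 by 2.22 and PFKFB4 by 2.19. Of 15 genes for uptake and use of propionate and acetate, 2 were higher, a share (13.3%) near the 14.3% of all genes. These were the monocarboxylate exporter SLC16A3 (1.64) and the acetate-activating ACSS2 (1.12). ACSS2 read 0.82 and 0.85 under the array median and spike-in scalings. The receptor of short-chain fatty acids FFAR2 fell by 1.46, a call lost with normexp background correction (-0.44).

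Chromatin and epithelial genes moved less as groups. Of 10 histone deacetylase genes, HDAC10 (1.60), HDAC5 (1.25) and HDAC3 (1.20) rose (30% against 14.3% of all genes). Only HDAC10 was called under the array median and spike-in scalings. The linker histone genes H1F0 and H1FX rose by 2.25 and 1.53. In the Wnt list 3 of 17 were higher (17.6%, near the 14.3% of all genes) and 4 lower (23.5% against 8.08%). DACT3, an antagonist of the pathway, rose by 8.01 with 3 of the 4 TRAIL arrays above background, and EPHB2 rose by 2.54. The stem cell gene LGR5 (-2.19) and DKK1 (-1.45) fell. LGR5 was above background on 2 of the 4 TRAIL+SN arrays, and with normexp it was not called (-0.67). CDX2, the intestinal identity factor, rose by 1.72 and the adherens junction gene CDH1 by 1.23 (0.93 and 0.96 under the array median and spike-in scalings). The tight junction gene CLDN2 fell by 1.88.

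The comparison with TRAIL plus propionate and acetate asks what the supernatant did beyond these acids, and lies within slide 4. TRAIL+SN differed from TRAIL+C3/C2 by 202 higher (0.976%) and 529 lower genes (2.56%), or 363 and 348 under the array median scaling, against the 2961 and 1672 of the contrast with TRAIL. The study states that the mixture matched the propionate and acetate content of the diluted supernatant, which was not checked here. Of the genes higher than in TRAIL, 137 were also higher than in TRAIL+C3/C2, and of the lower ones 146 were lower.

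The aryl hydrocarbon receptor is a sensor of aromatic compounds that include bacterial and dietary metabolites, and 4 of the 9 tested genes of its list were higher than with the acids, against 0.976% of all genes. CYP1A1 averaged -4.16 in TRAIL, -1.59 in TRAIL+C3/C2 and 3.11 in TRAIL+SN, so it was 4.71 higher with supernatant than with the acids. CYP1B1 averaged 1.76, 0.79 and 3.70, and its level with the acids lay below that in TRAIL. TIPARP (1.06) and CYP1A2 (1.26) were also higher than with the acids, whereas AHRR (0.59) and AHR (0.06) were not called. Against TRAIL, 6 of 9 genes of the list were higher (66.7% against 14.3% of all genes, median 1.53) and none was lower. TIPARP was at 2.06, AHRR at 2.02 and AHR at 1.47.

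Through the integrated stress response cells answer amino acid shortage and misfolded proteins by way of ATF4. Of its 22 tested genes 10 were higher than in TRAIL (45.5% against 14.3% of all genes, median 0.86). Higher than in TRAIL+C3/C2 were 9, against 0.976% of all genes, and none was lower in either. CHAC1, which degrades glutathione, read -0.01, 0.00, 1.38 and 2.04 in TRAIL and 5.39, 5.29, 5.31 and 5.29 in TRAIL+SN. TRAIL replicates 3 and 4 lay above 1 and 2, and the rise was 5.34 and 3.59 within those pairs. It was 3.11 higher than with the acids. DDIT3 (CHOP) rose by 3.08 and lay 2.56 above the acids, ATF3 by 3.67 and 2.56, asparagine synthetase ASNS by 2.16 and 2.36, DDIT4 by 2.70 and 1.10, the amino acid transporter SLC7A5 by 2.00 and 1.06 and PPP1R15A by 1.81 and 1.02. Another ATF3 probe differed from TRAIL by 0.74 and was not called. Of the 20 aminoacyl-tRNA synthetase genes, which ATF4 also serves, none was higher than in TRAIL.

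Upstream sequences are shown for CYP1A1 and CHAC1, which stood farthest above the acids in their lists, and for ASNS as a further member that holds a match, with matches in capitals: GCGTG, the core of the element bound by the aryl hydrocarbon receptor, in CYP1A1, and TGATGNAA, a form of the amino acid response element, in CHAC1 and ASNS. They come from RefSeq on GRCh38.p14, on the strand of the gene, and end at the base before the start. CYP1A1 is chr15:74725529-74725648 (minus strand), CHAC1 chr15:40953221-40953470 (plus) and ASNS chr7:97872409-97872528 (minus). ASNS has a second annotated start, whose window held no match and is not shown.
CYP1A1: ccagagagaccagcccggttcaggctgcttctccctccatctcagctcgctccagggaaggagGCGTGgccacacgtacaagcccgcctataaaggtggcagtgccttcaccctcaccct
CHAC1: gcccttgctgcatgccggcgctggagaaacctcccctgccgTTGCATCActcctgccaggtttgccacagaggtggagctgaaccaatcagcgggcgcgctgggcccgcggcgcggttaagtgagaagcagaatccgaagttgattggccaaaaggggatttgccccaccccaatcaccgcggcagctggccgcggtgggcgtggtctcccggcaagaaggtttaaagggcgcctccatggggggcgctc
ASNS: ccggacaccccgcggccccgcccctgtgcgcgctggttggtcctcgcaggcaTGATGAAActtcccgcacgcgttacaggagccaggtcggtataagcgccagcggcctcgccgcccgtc
The CYP1A1 match stood 57 bases before the start, the CHAC1 match 209 bases before it on the opposite strand and the ASNS match 68 bases before it. Both strands were searched over 250 bases before each start. GCGTG was found in 32.2% of all windows and TGATGNAA in 3.14%. Of the 6 stress genes searched, CHAC1, ASNS, ATF3, DDIT3, DDIT4 and SLC7A5, 3 held TGATGNAA in a window, and DDIT3, DDIT4 and SLC7A5 did not.

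The keratin genes KRT17 and KRT14 were 2.81 and 2.78 higher than with the acids, and may share signal as close paralogs. They rose by 3.29 and 3.26 against TRAIL. On the other side FBXO2 (-2.97), MIR17HG (-2.19), TXNIP (-2.13) and TMEM229A (-2.06) were lower with supernatant than with the acids. FBXO2 and TMEM229A were nonetheless higher than in TRAIL, by at least 10.8-fold and at least 2.28-fold. The TMEM229A call against TRAIL was lost with normexp (0.64). MIR17HG averaged -0.13 in TRAIL, -1.25 in TRAIL+C3/C2 and -3.44 in TRAIL+SN. TXNIP averaged 1.95, 2.38 and 0.25, so with the acids it lay above its level in TRAIL. The chemokines CXCL1 (-1.11) and CXCL10 (-2.63) were lower than with the acids, and IL8 (0.88) and CXCL2 (-0.05) were not called.

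**Figure D5:**
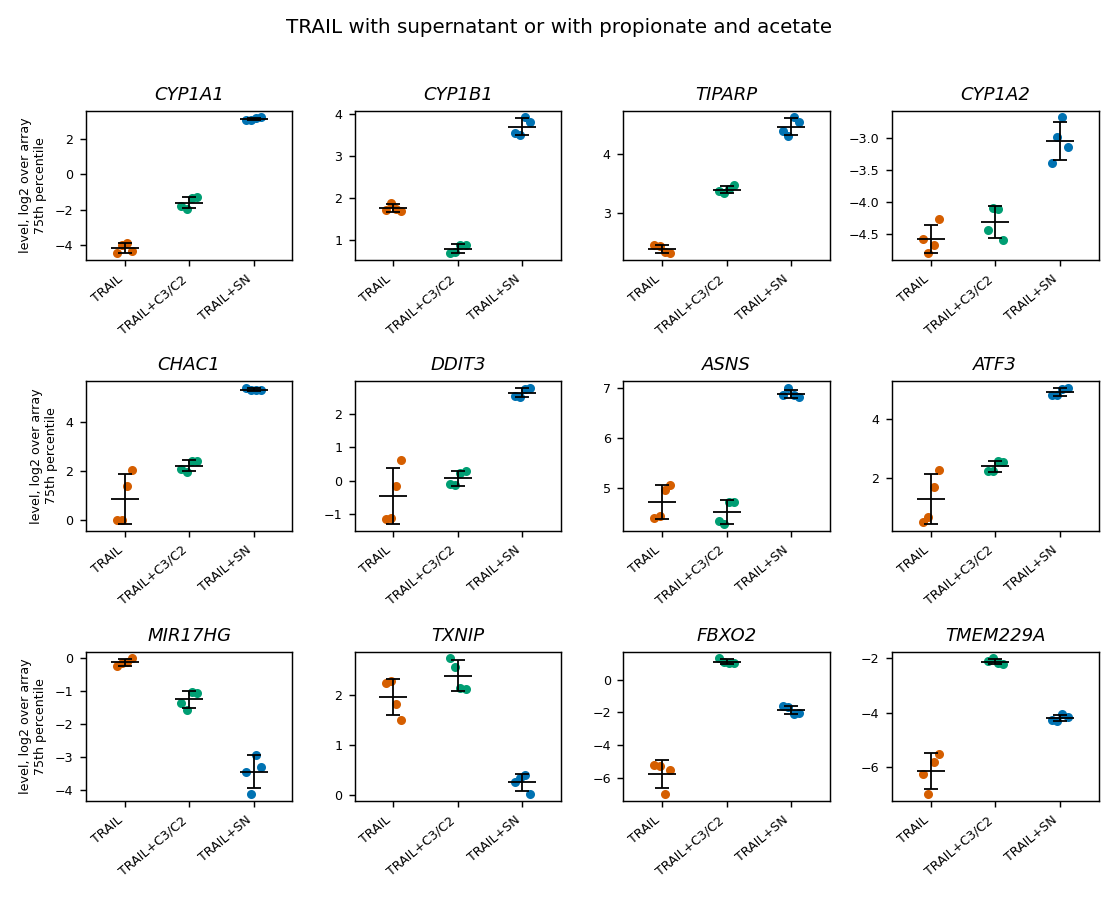
Levels (log2 of signal over the array's 75th percentile, vertical axis; each panel has its own scale) of 12 genes in TRAIL, TRAIL+C3/C2 and TRAIL+SN cells; points are arrays, bars the mean ± SD, 4 arrays per group. In the first 8 panels the TRAIL+SN arrays lie above the TRAIL+C3/C2 arrays, and in the last 4 they lie below.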

How the data were processed

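RNA of 24 HT29 samples in 6 groups of 4 was hybridised by the authors to one-colour Agilent arrays and read with Feature Extraction 10.7.3.1, per the file headers. The deposited scanner files hold background-subtracted intensity values per spot (gProcessedSignal), and the deposited value table holds a signal, the intensity over each array's median (column medians all 1). Its 24 further per-sample columns were not used. The comparison, the named members and the gene lists were chosen with earlier results of these data known.

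From 58717 spots that were not controls, spots of one probe were averaged, log2 intensity minus the array's 75th percentile was taken, and probes were kept if some group had all 4 arrays well above background (27953 of 50599). The probe with the highest mean over the 24 arrays stood for a gene (20700). limma 3.58.1 in R 4.3.3 fitted 6 group means; a gene was called at a fold of 2 and a Benjamini-Hochberg adjusted p under 0.05. Where a gene was not above background on any array of a group, its fold is a bound against the lowest signal above background on each array. It is a bound under the main processing only, and other processing gave smaller differences for some of these genes. Named genes were the 10 largest rises and falls among called genes with a symbol, above background on all arrays and without overlap, the 5 highest bounds each way, up to 6 members per list, the study's apoptosis genes, and the 5 largest each way against TRAIL+C3/C2 and in the interaction; names outside these were chosen after their values were seen, and some genes that the rule names are not reported here. Names are those of the array; 14618 genes matched RefSeq by accession, 1966 of them under another symbol. The number of arrays limits the precision, and p-values measure the spread between these samples, which may be technical. The fit was tested on simulated data. Alternatives were other scalings, background corrections, filters, blocks and leaving out each array.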

Additional observations from a re-analysis of the deposited data

Results flagged for a closer look

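In 8 of 312 groups of 4 arrays 1 array lay far from the other 3, fewer than the 1 in 20 groups that chance gives. The gap of that array, as a share of the range of its group, was 0.905 for CFLAR (TRAIL replicate 4), 0.930 for NFKB1 (TRAIL replicate 2), 0.873 for SESN2 (TRAIL replicate 4) and 0.854 for ZNF90 (TRAIL replicate 3). In the TRAIL+SN arrays it was 0.839 for IL11, 0.861 for PLIN2 and 0.862 for HDAC5, each in replicate 2, and 0.857 for HDAC3 in replicate 3.

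The effect of the supernatant differed between cells with and without TRAIL, by the interaction in limma, for these named genes. It was higher with TRAIL for IL8 (3.59), PABPC3 (3.56), NACAP1 (3.54), ZNF90 (3.36), CXCL1 (2.79), CXCL2 (2.76), NFKBIZ (1.67), CCL20 (1.54), ICAM1 (1.50), CD70 (1.45) and CXCL3 (1.07). It was lower with TRAIL for UBD (-6.68), LTB (-3.13), CXCL10 (-2.50), PI3 (-2.26), IL4I1 (-2.06), MCAM (-2.02), KLK10 (-1.79) and PTGS2 (-1.77). For IL8, UBD, CXCL10, CD70 and LTB at least 1 of the groups had no array above background, and for CCL20 2 of 4 NT arrays were not, so these values have no exact size. The levels of PABPC3, NACAP1 and ZNF90 followed the slides. TRAIL and SN arrays share slide 3, and the NT arrays lay on slides 1 and 2. The part of the slides in these values was not tested.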

How the results depend on the processing

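Of the 138 called genes that the text names, 30 lost the call under at least 1 alternative. The calls against TRAIL were 2130 higher and 2944 lower with array median scaling and with the authors' table, 2187 and 2786 with spike-in scaling, 1669 and 843 with normexp background correction, 1958 higher among genes above background on all 8 arrays, and 7369 and 6549 with no minimum fold. Against TRAIL+C3/C2 they were 363 and 348 with the array median or the authors' table, 357 and 348 with spike-ins, 311 higher with quantile normalization, 70 and 84 with normexp, 125 and 206 with the stricter filter, and 3298 and 4491 with no minimum fold. Interactions above and below the sum numbered 340 and 296 with spike-ins, 290 and 16 with normexp, 352 and 30 with the stricter filter, and 2268 and 2527 with no minimum fold; those below were 161 with the array median or the authors' table, 109 with quantile normalization and 104 with unadjusted p. The median over all genes was -0.25, -0.22, -0.07, 0.14, 0.23 and 0.02 with the array median, spike-ins, quantile normalization, normexp, no filter and the stricter filter. Leaving out each array gave 2881 to 3051 higher and 1652 to 1707 lower, 183 to 231 and 506 to 566 against TRAIL+C3/C2, and 524 to 644 above and 60 to 86 below the sum. The differences of MCAM and ZNF90, neither called, turned to -0.29 and -0.21 with the array median or the authors' table, -0.26 and -0.18 with spike-ins and -0.0166 and -0.0339 with quantile normalization. MCAM was also -0.0513 with normexp, and -0.0968 to 0.0769 when each array was left out. IL33 read 0.0023 with normexp. With the mean of all probes CFLAR was -0.84 and CASP10 0.0101. The cause was not tested. Dim genes have the least certain folds.

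Arrays of the same replicate number in TRAIL and TRAIL+SN had deviations correlated at 0.06 to 0.22, and 4 of 8 arrays correlated best with their own number. Not every same-numbered pair exceeded 0.1, so single numbers were not taken to pair the arrays, although replicates 1 and 2 deviated together, as did 3 and 4. With the replicate block 2962 genes were higher and 1675 lower, 207 and 536 against TRAIL+C3/C2, and 598 above and 81 below the sum.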
